A study of Mus musculus with 19 samples.

Results

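Lhx2, Acaa1b, Kcnj14, Slc22a6, Nlgn2, Tnfrsf1b, Map3k4 and Mast4 are 8 genes of the 22180 with a probe set of their own on the array, and of the 14231 that were measured above a filter on low intensity. They were picked because their levels shifted in ErbB2-driven mammary tumours labelled Itgb3 knockout, or because the tumours labelled double knockout did not carry the sum of the shifts seen with each integrin deletion alone. Those values are therefore given below as a description, with no test. The genes belong to no common pathway. Integrin beta 3 pairs with the alpha v and alpha IIb subunits to bind vitronectin, fibrinogen and other ligands with an RGD motif, while integrin beta 1 pairs with many alpha subunits to bind collagen, laminin and fibronectin. Both relay adhesion through focal adhesion kinases to the cytoskeleton and the nucleus, and beta 3 is known in tumours mostly from blood vessels, platelets, osteoclasts and invading cells.

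The study measured total RNA from 19 flash frozen end-burden mammary tumours on whole-transcript arrays. All carried the MMTV-NIC transgene, whose MMTV promoter expresses activated ErbB2 (Neu) and Cre recombinase on a single transcript, and the groups were 4 tumours with floxed Itgb3 alone (itgb3 fl/fl, labelled beta 3 integrin KO), 6 with both genes floxed (itgb1 fl/fl itgb3 fl/fl, labelled DKO), 4 with floxed Itgb1 alone (itgb1 fl/fl, labelled beta 1 integrin KO) and 5 with intact integrin genes (NIC WT, the control). Cre acts in the mammary epithelium, so stroma, vessels and blood cells in the same RNA keep their integrin genes. The labels give no age and do not say whether tumours came from separate mice, so p-values rest on the variation among these tumours only, some of which may be technical. In a bulk sample fewer cells of a type and less RNA per cell cannot be told apart.

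The targeted genes set a limit on one label. On the log2 intensity scale used throughout, Itgb3 ranged from 6.34 to 7.40 in the Itgb3 knockouts, from 7.69 to 8.55 in the tumours labelled DKO, from 7.90 to 8.98 in the Itgb1 knockouts and from 7.72 to 8.41 in the controls, so it was low in the Itgb3 knockouts and not in the tumours labelled DKO. Itgb1 ranged from 7.93 to 9.20 in the tumours labelled DKO and from 8.39 to 8.98 in the Itgb1 knockouts, against 9.81 to 10.26 in the Itgb3 knockouts and 9.83 to 10.32 in the controls. Every statement on the labelled DKO tumours below concerns tumours with low Itgb1 and without a low Itgb3 transcript. The departure from additivity (labelled DKO minus both single knockouts plus control) was 1.01 (SE 0.352) for Itgb3 itself. For other genes it therefore compares groups by their labels, not by deletions that are all seen in the transcripts. Against the tissue label, all 9 luminal epithelial markers (Krt8, Krt18, Epcam, Cdh1 and others) were measured, at a mean of 8.96 to 9.45 on every array, while the basal markers Krt5, Krt14 and Trp63 reached the intensity filter on too few arrays to count as measured. The median over all probe sets was 4.41 to 4.48 on the Itgb3 knockout arrays, 4.32 to 4.34 on the labelled DKO arrays, 4.32 to 4.46 on the Itgb1 knockout arrays and 4.32 to 4.46 on the control arrays. Setting every array to the same median would move each difference between Itgb3 knockout and control by -0.07 and each departure from additivity by 0.11. The upper quartile was 6.345 to 6.361 on the Itgb3 knockout arrays and 6.366 to 6.425 on all others. Members higher in the Itgb3 knockouts lay at the 3.48th to 27.7th percentile of mean level, and those lower at the 36th to 64.5th. Whether the shape of the array values had a part in the member differences was not tested.

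The regulatory sequence upstream of the 3 genes with the widest departure from additivity is shown first, since Nlgn2 and Tnfrsf1b shared their pattern over the 4 groups and Lhx2 had the opposite one. The sequences are the 250 bases before the annotated start (RefSeq, GRCm38.p6), 5′ to 3′ along the gene, with each GC box in capitals (GGGCGG, or CCGCCC where it lies on the other strand).
Lhx2, chr2:38339031-38339280, plus strand: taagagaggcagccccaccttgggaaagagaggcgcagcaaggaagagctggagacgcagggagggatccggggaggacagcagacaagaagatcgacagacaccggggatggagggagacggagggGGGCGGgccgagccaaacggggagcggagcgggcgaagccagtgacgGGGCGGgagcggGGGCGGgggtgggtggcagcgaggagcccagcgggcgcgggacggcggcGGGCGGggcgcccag
Nlgn2, chr11:69837785-69838034, minus strand: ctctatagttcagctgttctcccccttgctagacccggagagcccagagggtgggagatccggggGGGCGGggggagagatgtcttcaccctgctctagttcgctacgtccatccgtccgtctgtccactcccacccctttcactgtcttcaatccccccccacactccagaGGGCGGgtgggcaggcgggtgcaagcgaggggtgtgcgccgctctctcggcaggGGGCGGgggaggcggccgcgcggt
Tnfrsf1b, chr4:145246871-145247120, minus strand: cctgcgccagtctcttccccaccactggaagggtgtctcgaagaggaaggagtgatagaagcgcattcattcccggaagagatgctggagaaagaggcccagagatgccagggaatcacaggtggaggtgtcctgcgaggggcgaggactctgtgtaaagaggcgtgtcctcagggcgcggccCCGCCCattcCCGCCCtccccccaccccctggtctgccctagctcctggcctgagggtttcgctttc
All 3 stretches held GC boxes, 4 in Lhx2, 3 in Nlgn2 and 2 in Tnfrsf1b. A second annotated Lhx2 start, further along the gene, had 0. Over the full 300-base windows, which run 50 bases past the start, a GC box on either strand was found in 35.7% of 32851 mouse windows. Of the 8 genes 7 had a window. Those of Mast4 (1 GC box) and Map3k4 (2) were also rich in G and C, at 75% and 72.7%, against a median of 52.7% over all windows. Acaa1b (43.7%) and Slc22a6 (50%) lay below that median, held no GC box, and had 4 and 3 CCAAT boxes, a motif of the letters CCAAT that was present in 37.4% of all windows. None of the 7 genes had TATAAA (13.6% of windows), CACGTG (7.15%) or TGACTCA (5.2%) on either strand, and different motifs did not overlap, although in Acaa1b and in Slc22a6 a pair of CCAAT matches on opposite strands shared bases. Genes whose levels were higher in the Itgb3 knockouts therefore had windows of both kinds, with Lhx2 rich in GC boxes and Acaa1b and Slc22a6 without them.

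Lhx2, a LIM-homeodomain transcription factor known from forebrain, eye and hair follicle development, was higher in the Itgb3 knockouts than in every other tumour. Its level was 4.99, 5.11, 5.05 and 5.34 in the Itgb3 knockouts, against 4.38, 4.41, 4.43, 4.65 and 4.51 in the controls. In the tumours labelled DKO it ran from 4.16 to 4.58 with a median of 4.25, against 4.96, 4.42, 4.57 and 4.73 in the Itgb1 knockouts. The 4 Itgb3 knockouts thus formed the top of all 19 arrays, and the labelled DKO tumours held the lowest values, 4 of 6 of them under the intensity filter of 4.38. The Itgb3 knockouts averaged 5.12 ± 0.15 (SD, n = 4) and the controls 4.48 ± 0.11 (SD, n = 5), a log2 difference of 0.65 (SE 0.125, 1.57-fold). With Itgb1 floxed as well the sign was the other way, at 4.32 ± 0.19 (SD, n = 6) in the labelled DKO and 4.67 ± 0.23 (SD, n = 4) in the Itgb1 knockouts, a difference of -0.35 (SE 0.12). The departure from additivity, the labelled DKO minus both single knockouts plus control, was -0.99 (SE 0.174). Low levels near the filter make the size of the lower values inexact, and with values under the filter raised to it the departure was -0.88.

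Acaa1b encodes a peroxisomal 3-ketoacyl-CoA thiolase, the enzyme of the last step of fatty acid oxidation in peroxisomes. It was lowest in the controls and similar in the 3 floxed groups. It measured 5.56, 6.14, 5.21 and 5.66 in the Itgb3 knockouts, against 4.97, 4.76, 4.72, 5.01 and 5.12 in the controls. Labelled DKO tumours ran from 5.19 to 5.91 with a median of 5.53, against 5.59, 5.10, 5.45 and 5.41 in the Itgb1 knockouts. Every Itgb3 knockout and every labelled DKO tumour lay above every control (the labelled DKO and control groups did not overlap, in either direction, for 1.79% of all genes), while 1 Itgb1 knockout lay between the controls. Relative to control the log2 difference was 0.73 (SE 0.169, 1.66-fold) in the Itgb3 knockouts, 0.64 (SE 0.153) in the labelled DKO and 0.47 (SE 0.169) in the Itgb1 knockouts, 3 values that share their 5 controls. Acaa1b differed in this from the other members that were higher in the Itgb3 knockouts, whose labelled DKO values lay nearer to control (0.03 for Kcnj14, 0.15 for Slc22a6 and -0.15 for Lhx2). Its close paralog Acaa1a, which encodes the same enzyme activity, differed by -0.12 (SE 0.104) between Itgb3 knockout and control, with overlapping groups. Whether the probe set of one gene also binds transcripts of the other was not tested.

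Slc22a6 encodes the organic anion transporter OAT1, known from the kidney proximal tubule, and was the faintest of the 8 genes, at the 3.48th percentile of mean level. It measured 4.47, 4.76, 4.30 and 4.56 in the Itgb3 knockouts, against 4.22, 4.01, 4.27, 4.14 and 3.85 in the controls. Labelled DKO tumours ran from 4.10 to 4.35 with a median of 4.25, against 4.45, 4.37, 4.32 and 4.36 in the Itgb1 knockouts. Only 4 of the 19 arrays reached the filter of 4.38, 3 of them Itgb3 knockouts and 1 an Itgb1 knockout, so the gene entered the measured set through the group in which it was high. The difference between Itgb3 knockout and control was 0.43 (SE 0.105), and 0.16 (SE 0.0718) with values under the filter raised to it. All Itgb1 knockouts also lay above all controls (groups of 1.18% of all genes did not overlap), by 0.28 (SE 0.105) on average. In that comparison 3 of the 4 Itgb1 knockouts and all 5 controls lay under the filter, so nothing is read from the separation.

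Kcnj14, which encodes the inward rectifier potassium channel Kir2.4, stood apart in the Itgb3 knockouts alone. It measured 5.30, 5.51, 5.28 and 5.60 there, against 4.64, 5.07, 4.82, 5.10 and 4.91 in the controls. Labelled DKO tumours ran from 4.72 to 5.21 with a median of 4.96, against 5.11, 5.05, 5.01 and 5.09 in the Itgb1 knockouts. All 4 Itgb3 knockouts exceeded the other 15 tumours, and the other 3 groups overlapped one another. The difference between Itgb3 knockout and control was 0.52 (SE 0.12, 1.43-fold), and that between the labelled DKO and the Itgb1 knockouts was -0.12 (SE 0.115).

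**Figure D1:**
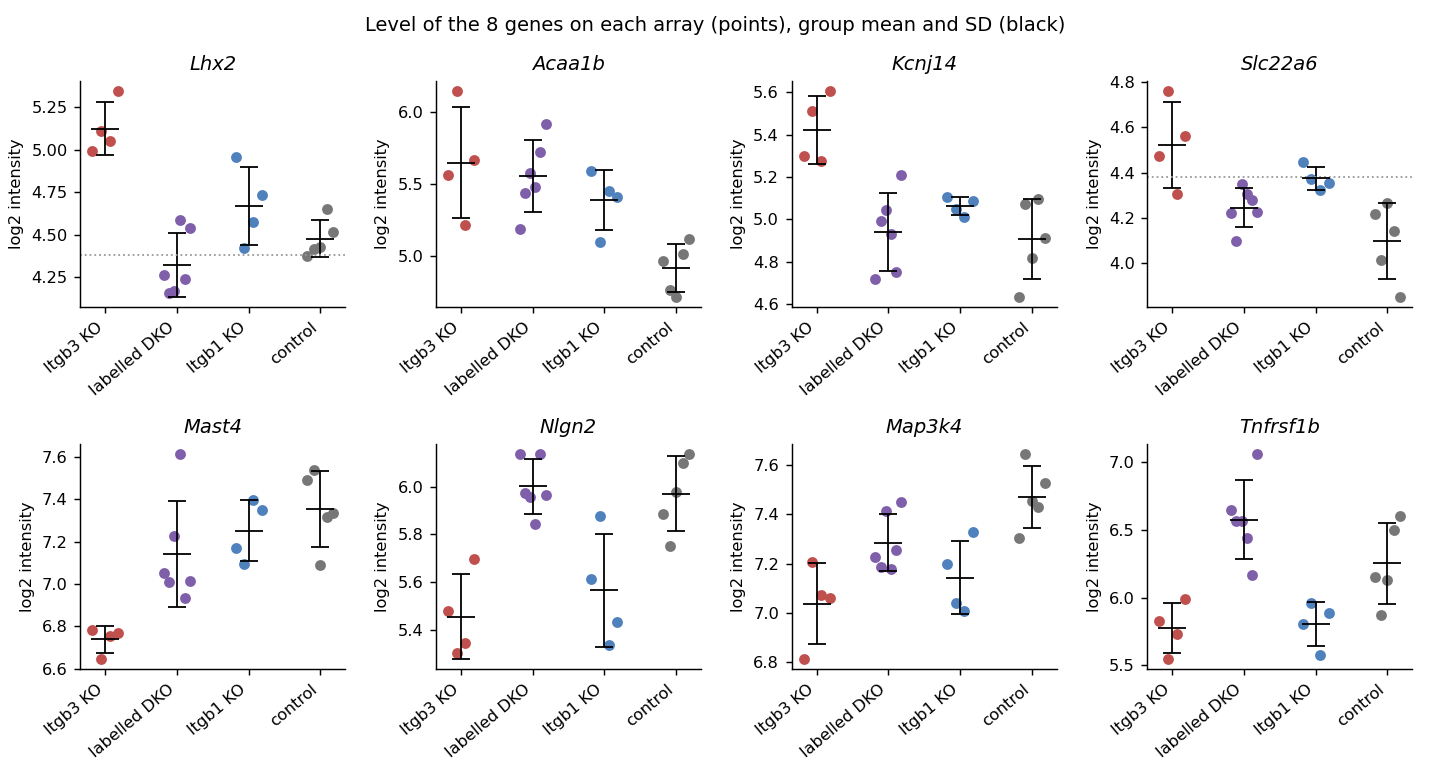
Log2 intensity of the 8 genes (1 panel each, with its own vertical range) on every array, as points, in the Itgb3 knockouts (n = 4), the tumours labelled DKO (n = 6), the Itgb1 knockouts (n = 4) and the controls (n = 5). Black marks give the group mean and SD, and the dotted line in the Lhx2 and Slc22a6 panels is the intensity filter (4.38); Lhx2 and Kcnj14 are highest and Mast4 is lowest in the 4 Itgb3 knockouts among all 19 tumours.

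Nlgn2 encodes neuroligin 2, a postsynaptic adhesion protein that binds neurexins and organizes inhibitory synapses, and was lower on average in both single knockout groups but not in the tumours labelled DKO. It measured 5.48, 5.30, 5.34 and 5.70 in the Itgb3 knockouts, against 5.88, 5.75, 5.98, 6.10 and 6.14 in the controls. The tumours labelled DKO ran from 5.84 to 6.14 with a median of 5.97, against 5.61, 5.88, 5.33 and 5.43 in the Itgb1 knockouts. The labelled DKO tumours exceeded the controls by 0.03 on average (SD 0.12, n = 6, and SD 0.16, n = 5). All of them lay above every Itgb3 knockout (these groups did not overlap, in either direction, for 8.95% of all genes). The difference from control was -0.52 (SE 0.123, 1.43-fold) in the Itgb3 knockouts and -0.41 (SE 0.123) in the Itgb1 knockouts, and the labelled DKO exceeded the Itgb1 knockouts by 0.44 (SE 0.118). The departure from additivity was 0.95 (SE 0.171), close in size to that of Lhx2 and opposite in sign.

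Tnfrsf1b encodes TNF receptor 2, a receptor without a death domain that signals through TRAF adaptors to NF-kappaB and is known from T cells, myeloid cells and endothelium. Its level was 5.83, 5.54, 5.73 and 5.99 in the Itgb3 knockouts, against 6.16, 5.87, 6.13, 6.50 and 6.61 in the controls. The tumours labelled DKO ran from 6.17 to 7.06 with a median of 6.56, against 5.80, 5.96, 5.58 and 5.89 in the Itgb1 knockouts. All labelled DKO tumours exceeded all tumours of both single knockout groups. Of all genes, 8.95% had no overlap between labelled DKO and Itgb3 knockouts, and 2.69% none between labelled DKO and Itgb1 knockouts. The Itgb3 knockouts overlapped the controls through control replicate 2 (5.87). The difference was -0.48 (SE 0.167) between Itgb3 knockout and control, -0.45 (SE 0.167) between Itgb1 knockout and control, and 0.77 (SE 0.161, 1.70-fold) between the labelled DKO and the Itgb1 knockouts. Its departure from additivity, 1.25 (SE 0.232), was the widest of the 8. It was the 1 member whose Itgb3 knockout and control groups overlapped.

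Map3k4 encodes a MAP3 kinase that GADD45 proteins activate and that acts upstream of p38 and JNK. It measured 6.81, 7.21, 7.07 and 7.06 in the Itgb3 knockouts, against 7.30, 7.65, 7.46, 7.43 and 7.53 in the controls. The tumours labelled DKO ran from 7.18 to 7.45 with a median of 7.24, against 7.20, 7.04, 7.01 and 7.33 in the Itgb1 knockouts. All Itgb3 knockouts lay below all controls, and the means of the other groups lay between those of these. The difference was -0.44 (SE 0.107, 1.35-fold) between Itgb3 knockout and control and -0.33 (SE 0.107) between Itgb1 knockout and control. A second Map3k4 probe set, dimmer on every array, averaged 4.61 ± 0.14 in the Itgb3 knockouts (SD, n = 4) and 4.77 ± 0.25 in the controls (SD, n = 5), with overlapping groups. With both probe sets averaged the Itgb3 knockout difference was -0.30 and the departure from additivity 0.33, in place of 0.58 (SE 0.148).

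Mast4, of the microtubule-associated serine/threonine kinase family, was lower in the Itgb3 knockouts than in all 15 other tumours. It measured 6.78, 6.64, 6.75 and 6.77 in the Itgb3 knockouts, against 7.49, 7.54, 7.09, 7.32 and 7.34 in the controls. The tumours labelled DKO ran from 6.93 to 7.61 with a median of 7.03, against 7.17, 7.09, 7.40 and 7.35 in the Itgb1 knockouts. The 4 Itgb3 knockouts were close together (SD 0.06) and the labelled DKO tumours spread most, with replicate 4 highest of all. The difference was -0.62 (SE 0.131, 1.53-fold) between Itgb3 knockout and control, and -0.11 (SE 0.126) between the labelled DKO and the Itgb1 knockouts. A second Mast4 probe set stayed under the filter on every array, at a mean of 2.98 in the Itgb3 knockouts and 2.95 in the controls.

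Set side by side, 7 of the 8 genes had Itgb3 knockout and control groups that did not overlap, which holds for 2.35% of all measured genes, and 3 (Lhx2, Kcnj14, Mast4) separated the Itgb3 knockouts from all 15 other tumours, against 0.295% of all genes. The members were picked on this comparison, so these shares describe the choice. Over all genes limma called 0% in the comparison of Itgb3 knockout with control and 0% for the departure from additivity, with 874 (6.14%) and 1777 (12.5%) of 14231 genes at an unadjusted p under 0.05. Between the labelled DKO and the Itgb1 knockouts, which also differ by floxed Itgb3 but not in Itgb3 transcript, 1 of the 8 genes (Tnfrsf1b) had groups that did not overlap, against 2.69% of all genes, and limma called 0.0211% of all genes. The departure from additivity, on which members were also picked, holds this difference (correlation of the estimates 0.693). That count and the signs of this difference given below therefore describe the choice as well. Between the labelled DKO and the Itgb3 knockouts 5 of the 8 did not overlap, against 8.95% of all genes, but this comparison shares its arrays with those the members were picked on, so the share again describes the choice. Between the labelled DKO and the Itgb1 knockouts the sign was the same as between Itgb3 knockout and control for Acaa1b (0.17, SE 0.163) and Mast4 and was opposite for the other 6. For Lhx2 and Slc22a6 every labelled DKO tumour lay below the Itgb1 knockout mean, and for Nlgn2, Map3k4 and Tnfrsf1b every one lay above it. All 6 labelled DKO values of Slc22a6 lay under the filter.

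**Figure D2:**
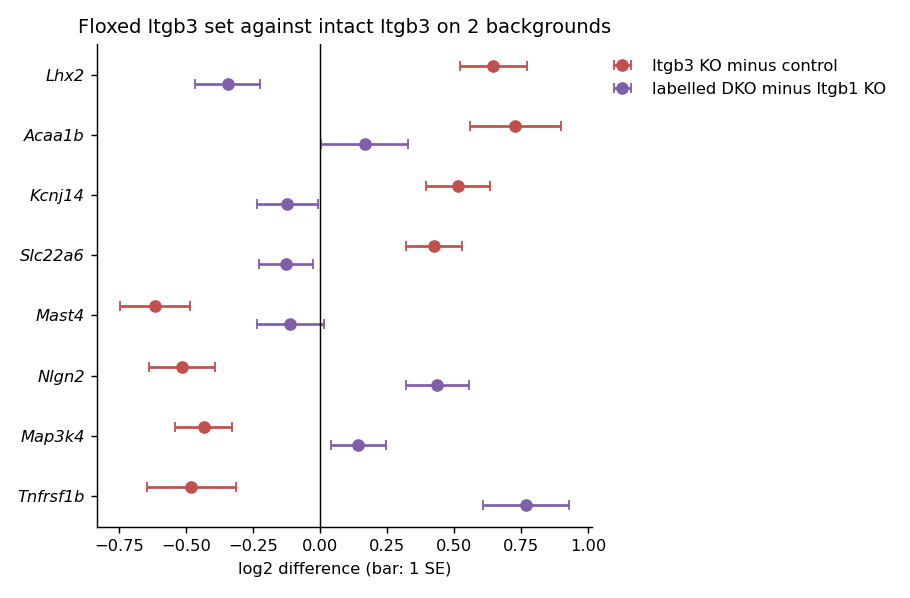
Log2 difference (horizontal axis, bar 1 SE of the limma fit) of each gene between Itgb3 knockout (n = 4) and control (n = 5), and between the tumours labelled DKO (n = 6) and the Itgb1 knockouts (n = 4). The 4 upper genes lie right of 0 and the 4 lower genes left of 0 in the Itgb3 knockouts, and only Acaa1b and Mast4 keep that side in the labelled DKO.

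One comparison was nearly free of the choice of members: all tumours with floxed Itgb1 against all with intact Itgb1, averaged over Itgb3 status so that each of the 4 groups weighs the same. Its estimates have a correlation, set by the group sizes, of -0.08 with the Itgb3 knockout difference and -0.038 with the departure from additivity. In limma with Benjamini-Hochberg adjustment over 14231 genes, 0 of the 8 members passed an adjusted p of 0.05, where 5 genes (0.0351%) did and 1970 (13.8%) had an unadjusted p under 0.05. Lhx2 came nearest: it averaged 4.50 in the 10 Itgb1-floxed tumours and 4.80 in the 9 Itgb1-intact tumours (difference -0.30, SE 0.0868, 95% interval -0.48 to -0.12, adjusted p = 0.166). That average joined opposite signs, -0.80 (SE 0.12) between the labelled DKO and the Itgb3 knockouts and 0.19 (SE 0.125) between Itgb1 knockout and control, so Lhx2 was not lower with floxed Itgb1 where Itgb3 was intact. Acaa1b averaged 5.47 in the floxed and 5.28 in the intact tumours (difference 0.19, SE 0.117, adjusted p = 0.482), and the difference was 0.12 without Itgb3 knockout replicate 3. Kcnj14 differed by -0.16 (SE 0.083, adjusted p = 0.395), Tnfrsf1b by 0.18 (SE 0.116, adjusted p = 0.502) and Mast4 by 0.15 (SE 0.0908, adjusted p = 0.466). For Nlgn2 the difference was 0.07 (95% interval -0.11 to 0.25; 0.02 without Itgb1 knockout replicate 2), for Map3k4 -0.04 (-0.20 to 0.12) and for Slc22a6 0.00 (-0.15 to 0.15). The value of Slc22a6 rests on a gene that reached the filter on only 4 of 19 arrays, 3 of them Itgb3 knockouts, and nothing is read from it. The signs for Map3k4 and Slc22a6 turned with the scaling of the arrays. The spread within groups entered the choice of members as well, and 6 of the 8 had a residual SD below the 25th percentile of all genes, so the standard errors may be on the small side.

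**Figure D3:**
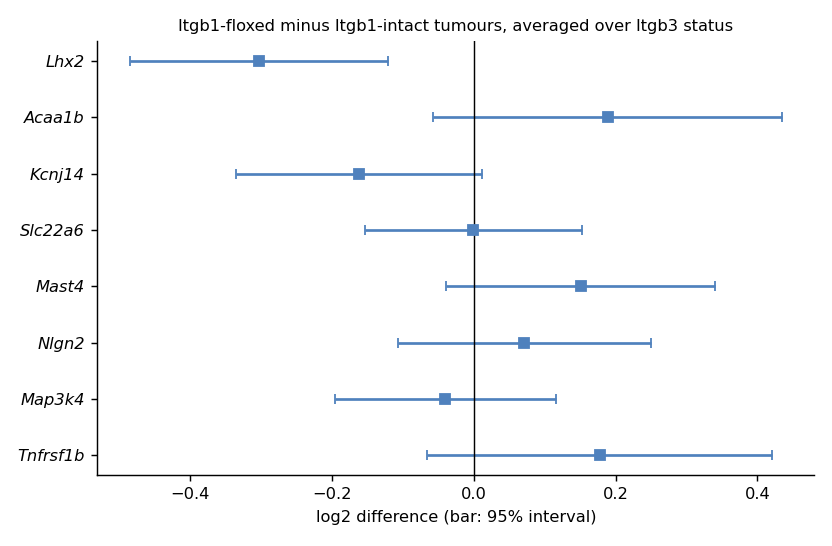
Log2 difference (horizontal axis) of each gene between the 10 Itgb1-floxed tumours (labelled DKO and Itgb1 knockout) and the 9 Itgb1-intact tumours (Itgb3 knockout and control), with each group given the same weight; bars are 95% intervals of the limma fit. The interval of Lhx2 (-0.48 to -0.12) lies below 0 and the other 7 include 0.

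Within the groups, where the choice of members played no part through the means, the 8 genes did not move as one set. Deviations from the group means gave 28 pairs of members with a median Pearson r of 0.08 over 19 arrays, 18 of them above 0. The highest was Kcnj14 with Map3k4 (r = 0.59, Spearman rho = 0.57), although the group means put Kcnj14 high and Map3k4 low in the Itgb3 knockouts. Lhx2, Acaa1b and Kcnj14 were positively related in all 3 of their pairs (r = 0.42, 0.48 and 0.43). Nlgn2 and Tnfrsf1b, which shared their pattern over the groups, were also related within them (r = 0.50, rho = 0.59), while Nlgn2 and Mast4, both low in the Itgb3 knockouts, ran opposite to each other (r = -0.54, rho = -0.59). These values describe 19 arrays that share 1 normalization and carry no test.

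**Figure D4:**
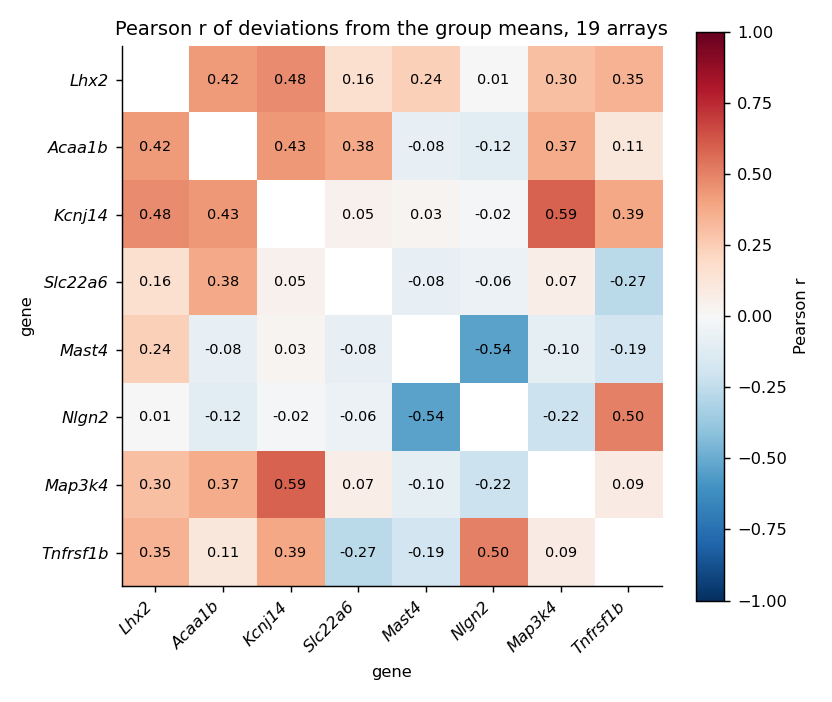
Pearson r between each pair of the 8 genes, from log2 deviations from the group means over 19 arrays (both axes list the genes; colour and number give r). The highest value is 0.59 (Kcnj14 with Map3k4) and the lowest -0.54 (Mast4 with Nlgn2).

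Among all other measured genes, those most like each member in its deviations were fixed by r. For Lhx2 they were the phospholipid scramblase gene Plscr1 (r = 0.78) and the kinase gene Map3k3 (r = 0.76), and the innate receptor gene Tlr9 was most opposed (r = -0.85). Acaa1b was nearest to the glutamate receptor gene Grik3 and the receptor gene Gpr157 (both r = 0.74) and opposed to the phospholipase gene Pla2g4a (r = -0.83). Kcnj14 was nearest to Fgd5 (r = 0.84), which encodes an endothelial guanine exchange factor, and Cacul1 (r = 0.78), and opposed to Gramd2 (r = -0.84). Slc22a6 was nearest to the nuclear import gene Tnpo2 (r = 0.82) and Mesp2 (r = 0.74), and opposed to the collagen gene Col8a2 (r = -0.76). As Slc22a6 reached the filter on only 4 of 19 arrays, nothing is read from its likeness. Nlgn2 was nearest to Caly (r = 0.86) and Krtap5-4 (r = 0.81) and opposed to Ttc13 (r = -0.82). Tnfrsf1b was nearest to the kinase gene Map2k1 (r = 0.82) and Osbpl10 (r = 0.81) and opposed to Tusc1 (r = -0.87). Map3k4 was nearest to Prkcz (r = 0.83), an atypical protein kinase C, and the ubiquitin conjugase gene Ube2j2 (r = 0.81), and opposed to Ube2e3 (r = -0.83). Mast4 was nearest to the RNA helicase gene Ddx39b (r = 0.88) and Wdr59 (r = 0.87) and opposed to Zhx1 (r = -0.83). Each is an extreme among all measured genes over 19 arrays.

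Markers of other cell types moved with the members to different degrees. Over 96 correlations of the 8 genes with 12 marker lists, r ran from -0.64 to 0.61 within groups, with a median size of 0.21. Lhx2 was highest where milk protein and secretory genes were low (r = -0.63, rho = -0.56; -0.73 to -0.53 with any 1 array left out). Between the groups the 2 did not run opposite: the mean level of the 8 milk genes was 7.34 to 8.30 in the Itgb3 knockouts, where Lhx2 was high, and 6.44 to 7.19 in the controls. Kcnj14 followed the 9 endothelial markers (r = 0.61, rho = 0.60), whose mean was 6.27 to 6.46 in the Itgb3 knockouts and 6.19 to 6.80 in the controls. Mast4 ran opposite to the 10 macrophage markers (r = -0.64, rho = -0.55), at 7.32 to 7.71 in the Itgb3 knockouts and 7.23 to 8.02 in the controls, and the size fell to -0.44 without 1 array. Tnfrsf1b was most related to the luminal list (r = 0.51, rho = 0.50). That list averaged 9.06 in each single knockout group, 9.15 in the controls and 9.31 in the labelled DKO. The group means of Tnfrsf1b had the same order. Nlgn2 was most related to the 4 measured of 7 basal and myoepithelial markers (r = 0.50), namely Krt17, Acta2, Myh11 and Oxtr. With Krt5, Krt14 and Trp63 unmeasured, these 4 do not identify basal cells. Their mean was 5.83 in the Itgb3 knockouts, 5.81 in the Itgb1 knockouts, 5.95 in the controls and 6.015 in the labelled DKO. The group ranges overlapped, and Nlgn2 was likewise lower on average in both single knockout groups. Acaa1b and Slc22a6 were opposed to the 10 fibroblast markers (r = -0.53 and -0.55, rho = -0.34 and -0.41). The size of r fell to -0.36 and -0.41 without 1 array. Slc22a6 reached the filter on only 4 of 19 arrays, so nothing is read from its value. The fibroblast mean was 5.12 to 7.31 in the Itgb3 knockouts, 6.10 to 7.83 in the tumours labelled DKO, 6.74 to 7.43 in the Itgb1 knockouts and 6.37 to 7.34 in the controls. The part of these cell types in the differences between groups was not tested.

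**Figure D5:**
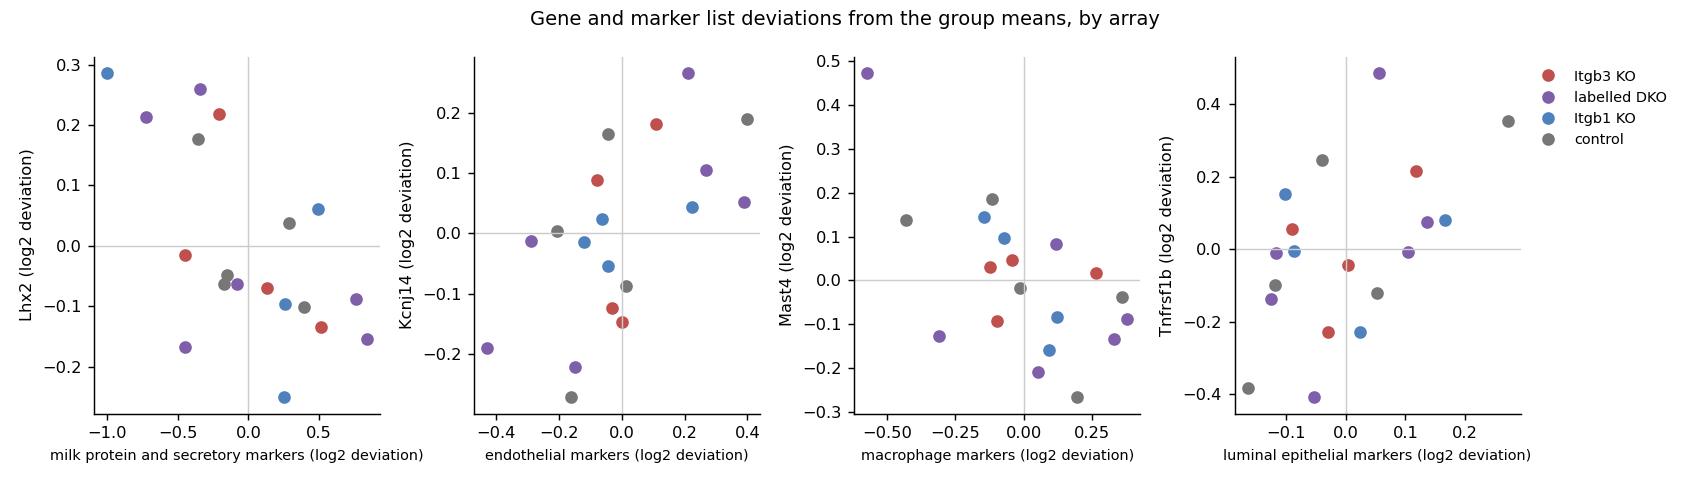
Log2 deviation from the group mean of Lhx2, Kcnj14, Mast4 and Tnfrsf1b (vertical axes) against the mean deviation of the marker list each was most related to (horizontal axes), with 1 point per array coloured by group (n = 19). Pearson r is -0.63 for Lhx2 with milk protein genes, 0.61 for Kcnj14 with endothelial markers, -0.64 for Mast4 with macrophage markers and 0.51 for Tnfrsf1b with luminal markers.

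Beside Tnfrsf1b, immune marker levels differed between groups in part as it did. The 10 macrophage markers averaged 8.06 in the tumours labelled DKO (7.49 to 8.44) and 7.77 in the Itgb1 knockouts (7.63 to 7.89). The 6 measured of 10 T and NK cell markers averaged 5.56 in the labelled DKO (5.04 to 6.08) and 5.13 in the Itgb1 knockouts (4.75 to 5.42), with Cd3d, Cd2, Ncr1 and Lck unmeasured. Both ranges overlapped between the groups, while those of Tnfrsf1b did not. Between the labelled DKO and the Itgb3 knockouts, where Tnfrsf1b differed by 0.80, all 10 macrophage markers lay above 0 (median 0.60, 3 of them passing in limma at an adjusted p under 0.05), as did all 6 T and NK cell markers (median 0.54, 0 passing). Between Itgb3 knockout and control, where Tnfrsf1b differed by -0.48, 1 of the 10 macrophage and 2 of the 6 T and NK cell markers lay above 0. Between Itgb1 knockout and control Tnfrsf1b differed by -0.45, but 9 of the 10 macrophage and 4 of the 6 T and NK cell markers lay above 0. Within the groups Tnfrsf1b had r = 0.09 with the macrophage list and r = -0.35 with the T and NK cell list. The part of these cells in the Tnfrsf1b difference was not tested. Beside Acaa1b, the 4 measured of 7 adipocyte markers averaged 5.30 in the Itgb3 knockouts, 5.47 in the tumours labelled DKO, 5.91 in the Itgb1 knockouts and 5.37 in the controls, with Adipoq, Lep and Pck1 unmeasured. All 4 lay above 0 between Itgb1 knockout and control (mean difference 0.54), where Acaa1b differed by 0.47. Between Itgb3 knockout and control, where Acaa1b differed by 0.73, 1 of the 4 lay above 0 (mean difference -0.07). Between the labelled DKO and control, where Acaa1b differed by 0.64, 3 of the 4 did (mean difference 0.10). Within the groups Acaa1b had r = -0.09 with this list. The part of adipocytes in the Acaa1b differences was not tested.

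The relatives and partners of the 8 genes, 112 measured genes in 8 lists, gave no call in the Itgb3 knockouts: 0 of 112 passed against control in limma (0% of all genes), and 6 (5.36%) had an unadjusted p under 0.05, against 6.14% of all genes. Of the 12 measured LIM-homeodomain factors and their cofactors besides Lhx2, 8 lay above 0 (median 0.10, against -0.01 over all genes). The homeobox genes Lhx1 (0.31), Lmx1b (0.28) and Lhx6 (0.27) had the smallest p, each with an adjusted p of 0.796 or 0.808. The median of the same list for the departure from additivity was -0.17 (0.01 over all genes), with 3 of 12 above 0. Peroxisomal fatty acid oxidation genes had a median of -0.01 (10 of 21 above 0), with Abcd2 (-0.60), a transporter of very long chain fatty acids, Acaa1a and Pecr (0.26) of the smallest p. Of 6 inward rectifier genes 4 lay above 0 (median 0.07), led by Kcnj11 (0.25), a subunit of the ATP-sensitive channel, and then Kcnj10 (0.14) and Kcnj2 (-0.15). For the departure from additivity this list had a median of 0.38 with 4 of 6 above 0, while Kcnj14 itself was at -0.64, and all 6 lay above 0 between the labelled DKO and the Itgb1 knockouts (median 0.37), where Kcnj14 was at -0.12.

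Among 8 organic ion transporter genes 5 lay above 0 in the Itgb3 knockouts (median 0.07), with Slc22a4 (0.61), Slc22a17 (0.25) and the carnitine transporter gene Slc22a5 (0.22) of the smallest p and none passing. In the tumours labelled DKO Slc22a23 rose against control by 1.63 (SE 0.275, limma adjusted p = 0.0133, 0.386% of all genes called) and averaged 6.66 there and 5.03 in the controls; the call was lost without control replicate 1. Against the Itgb3 knockouts, where 2.87% of all genes were called, Slc22a23 (1.62, adjusted p = 0.0127) and Slc22a15 (0.63, adjusted p = 0.0489) were higher in the labelled DKO, the second in 6 of 19 fits with 1 array left out. Of the 11 measured genes besides Nlgn2 in the list of synaptic adhesion genes and their partners, 4 lay above 0 in the Itgb3 knockouts (median -0.04). Dlg1 (-0.27), Shank2 (0.29) and Nlgn3 (-0.15) had the smallest p. The GABA-A receptor subunit gene Gabra4 was put in this list with earlier results of these data known, so its call is no independent result on partners of Nlgn2. Gabra4 fell in the labelled DKO by 5.06 against control (SE 0.557, limma adjusted p = 0.000194), where Nlgn2 differed by 0.03. The mean of Gabra4 in the labelled DKO, 3.21, lay under the filter, against 8.26 in the controls, and the difference was -3.79 or further from 0 in every alternative run. The 3 other MAST kinase genes measured, Mast3 (-0.12), Mast2 (-0.10) and Mastl (0.06), did not pass.

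In the stress kinase list of Map3k4, 7 of 25 genes lay above 0 in the Itgb3 knockouts (median -0.05), and the phosphatase gene Dusp1 (-0.48), Map3k11 (-0.26) and Map3k1 (-0.36) had the smallest p. For the departure from additivity 19 of 25 lay above 0 (median 0.32, against 0.01 over all genes), and 0 passed. Mapk9, which encodes JNK2, rose with floxed Itgb1 by 0.63 averaged over Itgb3 status (SE 0.107, limma adjusted p = 0.031), 7.79 in the labelled DKO and 7.77 in the Itgb1 knockouts against 7.03 in the Itgb3 knockouts and 7.26 in the controls; the call held in 11 of 19 fits with 1 array left out. Mapk9 (0.76, adjusted p = 0.0163) and Map3k3 (0.46, adjusted p = 0.0284) were higher in the labelled DKO than in the Itgb3 knockouts, in 17 and 14 of those 19 fits. In the TNF receptor list 13 of 26 genes lay above 0 in the Itgb3 knockouts (median 0.00). The NF-kappaB subunit gene Rela (-0.34), the protease gene Adam17 (-0.30), whose product sheds TNF and its receptors, and the inhibitor gene Nfkbie (-0.43) had the smallest p, each with an adjusted p of 0.796. Against the Itgb3 knockouts Rela (0.49, adjusted p = 0.0454) and Nfkbie (0.71, adjusted p = 0.0313) were higher in the labelled DKO, in 7 and 13 of 19 fits with 1 array left out, and 22 of the 26 genes lay above 0 (median 0.26, against 0.03 over all genes, of which 54.7% lay above 0). In the same comparison all 10 macrophage, 10 fibroblast, 9 endothelial and 6 T and NK cell markers also lay above 0, and their part in the values of this list was not tested. The calls of Rela and Map3k3 against the Itgb3 knockouts and that of Mapk9 with floxed Itgb1 were lost with quantile normalization, and those of Rela and Slc22a15 without the filter on low values.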

How the data were processed

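Affymetrix whole-transcript arrays of 19 mouse mammary tumours were used. The deposited table gives normalized log2 intensities of 41345 probe sets. Per the submitters' processing notes the authors made them in Affymetrix Expression Console, with no version stated. Its background correction, summarization and genome build are not given here. The values (0.542 to 13.7) were used without further normalization. No array was a copy of another (highest pairwise r 0.984), and no batch was given. The number of arrays limits the precision.

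Probe sets with 1 symbol (23521) in the platform annotation were kept where they reached the table's median (4.38) on at least 4 arrays, and the set with the highest mean was taken per gene (14231 genes; all 8 members passed, Slc22a6 through 4 arrays). All arrays entered 1 limma 3.58.1 fit (lmFit, eBayes, R 4.3.3) with 1 mean per group, 7 contrasts, 15 residual degrees of freedom and Benjamini-Hochberg adjustment over all genes. The script was tested on simulated data. The members and the gene lists were chosen with earlier results of these data known. Named are the members, the targeted genes, Acaa1a, the 2 most similar and the most opposed gene per member, list genes that passed and the 3 with the smallest p per list. Promoter windows came from RefSeq (GRCm38.p6), and protein sequences were not used here. Alternatives covered the filter, floor, scaling, array weights, variance model, probe set choice and leaving out each array. Levels are given for some of the 12 marker lists, and the others are not reported here.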

Additional observations from a re-analysis of the deposited data

Results flagged for a closer look

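For Lhx2, Slc22a6, Nlgn2, Map3k4 and Tnfrsf1b every Itgb3 knockout moved one way from the control mean and every tumour labelled DKO moved the other way from the Itgb1 knockout mean. For Slc22a6 all 6 labelled DKO tumours and 3 of the 4 Itgb1 knockouts lay under the intensity filter. The departure from additivity was -0.99 for Lhx2, -0.55 for Slc22a6 (-0.18 with values under the intensity filter raised to it), 0.95 for Nlgn2, 0.58 for Map3k4 and 1.25 for Tnfrsf1b. These differences were not tested, because members were picked on them, and the pattern describes the choice. The share of all genes with the same pattern was not computed. No single tumour stood apart from its group for any of the 8 genes by Dixon's test at the 95% level, in 32 combinations of gene and group.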

How the results depend on the processing

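The log2 differences of the 8 genes kept their sign in all 208 values each for Itgb3 knockout minus control, for the departure from additivity and for labelled DKO minus Itgb1 knockout, over 26 alternatives. Slc22a6 moved most, to 0.16 and -0.18 for the first and second of these with values under the filter raised to it, and Map3k4 moved to 0.33 for the second with both probe sets averaged. The third was the least stable, with 11 of 208 values past 1.5 times against 1 and 2 for the others: Slc22a6 moved to -0.02 with the raised values, Map3k4 to 0.03 with both probe sets averaged, Acaa1b to 0.07 without Itgb1 knockout replicate 2 and Mast4 to -0.21 without labelled DKO replicate 4. Part of the kept signs was fixed in advance. Leaving out an array of a group outside a difference cannot move it. Neither dropping the filter nor the other variance model moved any of these estimates. The members were also picked for large values, so their kept signs are no independent support. Without the 6 arrays labelled DKO, an alternative chosen after seeing the data, 0 genes passed between Itgb3 knockout and control, as in all alternatives. In the Itgb1-floxed average effect none of the 8 genes passed in any alternative (lowest adjusted p 0.0904, Lhx2 with array weights, and 0.0904 to 0.287 over its alternatives). Its sign for Slc22a6 turned to 0.057 with array centring, 0.057 with quantile normalization and 0.017 with array weights, and ranged from -0.038 to 0.038 with 1 array left out, and for Map3k4 it turned to 0.017 with centring and 0.0503 with probe sets averaged. Counts of genes passing were less stable. For the Itgb1-floxed average effect 5 became 34 with arrays centred on their medians and 2 to 43 with 1 array left out. For the departure from additivity 0 became 3 with array weights and 0 to 5 with 1 array left out, and for labelled DKO minus Itgb1 knockout 3 became 33 with array weights and 0 to 24 with 1 array left out. The cause was not tested. No paired analysis was possible because the labels carry no replicate numbers. Levels near the filter limit Slc22a6 and the low values of Lhx2.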
